A study of Mus musculus with 19 samples.

Results

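TBP, the TFIID complex and the general transcription factors were followed as 42 genes of the mouse, chosen by name from the 41128 Ensembl genes of the count table through their GENCODE M21 gene names. They comprised *Tbp* and its paralog *Tbpl1*, 13 TBP-associated factor (TAF) genes of TFIID, 3 genes of TFIIA and TFIIB, 4 of TFIIE and TFIIF, 10 of TFIIH, 3 of TFIIIB, 3 regulators of TBP (*Btaf1*, *Dr1* and *Drap1*) and 4 sequence-specific factors (*Sp1*, *Nfya*, *Nfyb* and *Nfyc*). All 42 had a row in the table, and 41 had enough counts to be tested, among 16841 tested genes. The question was whether a mutant *Tbp* allele changes the mRNA of *Tbp* itself or of the partners of TBP.

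The samples were bulk tissue of the cerebellum, striatum and prefrontal cortex of C57BL/6 mice aged 3 months, either SCA17 knock-in (KI) or wild-type (WT) and matched for age. SCA17 knock-in mice are a germline model of spinocerebellar ataxia type 17 in which the endogenous *Tbp* gene carries an expanded glutamine repeat. Per the study's methods, the line was made by crossing heterozygous floxed TBP mice with EIIa-Cre mice and crossing the offspring with WT mice, so that the mutant allele was present in all tissues and not in chosen cells. The cerebellum had 3 WT and 4 KI libraries, and the striatum and the prefrontal cortex each had 3 WT and 3 KI libraries. In whole tissue, fewer cells of a type and less RNA per cell cannot be told apart, and counts per gene do not separate the knock-in transcript from the wild-type transcript.

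TBP is the TATA box-binding protein, which bends promoter DNA and nucleates the assembly of the transcription machinery. With the TAFs it forms TFIID for RNA polymerase II, and with BRF1 or BRF2 and BDP1 it forms TFIIIB for RNA polymerase III. TFIIA and TFIIB hold TBP on DNA and bridge it to the polymerase, TFIIE and TFIIF bring in and position the polymerase, and TFIIH opens the DNA and phosphorylates the polymerase tail. SP1 binds GC boxes and NF-Y binds CCAAT boxes upstream of the start site. Expansion of the glutamine repeat near the amino terminus of TBP causes SCA17, in which cerebellar Purkinje cells are especially affected.

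The repeat that is expanded in the knock-in allele is given as it stands in the reference, because it is the position at which the groups differ by design. It lies in exon 4 of the transcript Tbp-201, within the coding sequence of 948 bases, at chr17:15504391-15504429 on the plus strand of GRCm38. It holds 13 glutamine codons, 9 CAG and 4 CAA, at codons 58 to 70, and all 9 coding transcripts of GENCODE M21 that hold it give the same sequence. The capitals mark the 13 repeat codons, with 15 bases of the flanking coding sequence on each side.
Tbp repeat: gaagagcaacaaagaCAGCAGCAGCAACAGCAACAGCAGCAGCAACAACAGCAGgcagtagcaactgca
These 39 bases are part of the 948 coding bases and of the 13576 exon bases over which reads were counted for *Tbp*. The repeat is longer in the knock-in allele, and its part in the counts of *Tbp* in KI libraries was not tested.

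Promoters are shown for *Tbp*, whose own mRNA is the question, and for *Taf13*, the member with the smallest p for the average over regions. Both are RefSeq windows of GRCm38.p6 that run from 250 bases before to 50 bases after the start, at chr17:15499638-15499937 for *Tbp* and at chr3:108571449-108571748 for *Taf13*, both on the plus strand. The capitals mark matches, on either strand, to TATAAA (the TATA box), GGGCGG (the GC box) and CCAAT, each searched on its own, so that overlapping matches would count for both motifs.
Tbp promoter: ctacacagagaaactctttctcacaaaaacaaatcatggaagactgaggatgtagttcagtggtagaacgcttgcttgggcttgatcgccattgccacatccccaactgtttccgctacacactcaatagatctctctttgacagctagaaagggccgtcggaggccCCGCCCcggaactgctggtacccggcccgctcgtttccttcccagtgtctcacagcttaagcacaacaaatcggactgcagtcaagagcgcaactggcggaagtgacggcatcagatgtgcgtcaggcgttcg
Taf13 promoter: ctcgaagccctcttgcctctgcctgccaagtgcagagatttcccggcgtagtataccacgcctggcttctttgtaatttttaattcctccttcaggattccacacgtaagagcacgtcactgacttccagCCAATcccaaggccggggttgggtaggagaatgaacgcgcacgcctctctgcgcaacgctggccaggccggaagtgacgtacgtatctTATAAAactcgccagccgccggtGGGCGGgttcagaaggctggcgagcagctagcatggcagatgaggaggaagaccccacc
The *Tbp* window held 1 GC box, in reverse orientation and beginning 83 bases before the start, and no match to TATAAA or CCAAT. The *Taf13* window held all 3, beginning 32 bases before the start for TATAAA, 9 for the GC box and 120 for CCAAT. A window was found for 35 of the 42 members, 44 windows in all. TATAAA was in 8 of them (18.2%), against 13.6% of all 32851 windows. The GC box was in 28 (63.6%), against 35.7% of all windows, and CCAAT in 12 (27.3%), against 37.4%. The median GC content was 59.3% in the members' windows and 52.7% in all. These are matches of letters, not measured binding sites.

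Library totals ran from 10639110 to 17431284 counts, with a median of 15082703. Judged by *Xist* and Y-linked transcripts, each WT group held 2 female and 1 male mice, KI cerebellum 2 and 2, and KI striatum and prefrontal cortex 1 female and 2 male mice each. No marker of the cell types examined was at 0 in any group. The summed level of 6 Purkinje cell markers was 3494 to 4951 CPM (counts scaled to a common library size) in KI and 5694 to 6073 CPM in WT cerebellum, with 1 of the 6 called lower. The sum of 6 granule cell markers was 3164 to 3354 CPM in KI and 3398 to 3928 CPM in WT cerebellum, with 0 of the 6 called. The sum of 10 microglia markers was 241 to 326 CPM in KI and 160 to 166 CPM in WT cerebellum, with 7 of the 10 called higher. In striatum this sum was 755 to 859 CPM in KI and 742 to 855 CPM in WT. In prefrontal cortex it was 608 to 725 CPM in KI and 673 to 740 CPM in WT. Of all tested genes, 0.831% were called for cerebellum and 0.582% for striatum. The sum of 6 markers of medium spiny neurons, the main neurons of the striatum, was 2790 to 3901 CPM in KI and 4959 to 5865 CPM in WT striatum, with 0 of the 6 called. Choroid plexus markers varied widely between libraries of a group. The sum of 4 of them was 9.73 to 4868 CPM in KI and 17.8 to 1937 CPM in WT cerebellum. In WT striatum it was 1539 to 8877 CPM, and in WT prefrontal cortex 12.6 to 26.0 CPM. The part of these cell type markers in the values of the members was not tested.

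Levels of different genes are compared as RPKM, CPM divided by the exon length in kilobases. Over the 9 WT libraries, the median of the 42 members was 6.68 RPKM, with 16 members above 10 RPKM, 24 between 1 and 10 and 2 below 1. The highest were *Gtf2f1*, the larger TFIIF subunit, at 45.9 RPKM, *Drap1*, a subunit of the TBP repressor NC2, at 31.7 RPKM, and *Ccnh*, the cyclin of the TFIIH kinase, at 30.3 RPKM. With the length of the longest transcript in place of all exon bases, the order of these 3 changed to *Drap1* (55.6 RPKM), *Ccnh* (46.1 RPKM) and *Gtf2f1* (45.9 RPKM), and 21 members lay above 10 RPKM. With all exon bases, *Tbp* stood 34th of 42 at 3.44 RPKM (36th with the longest transcript), below the median TAF (5.79 RPKM) and below its paralog *Tbpl1* (18.9 RPKM). This rank depends on length. *Tbp* had 12841 counts over all libraries on 13576 exon bases, and *Tbpl1* had 17631 counts on 3271 exon bases. The lowest were *Ercc2*, a TFIIH helicase, at 1.06 RPKM, *Nfya*, the DNA-binding regulatory subunit of NF-Y, at 0.763 RPKM, and *Taf9* at 0.0649 RPKM.

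**Figure D1:**
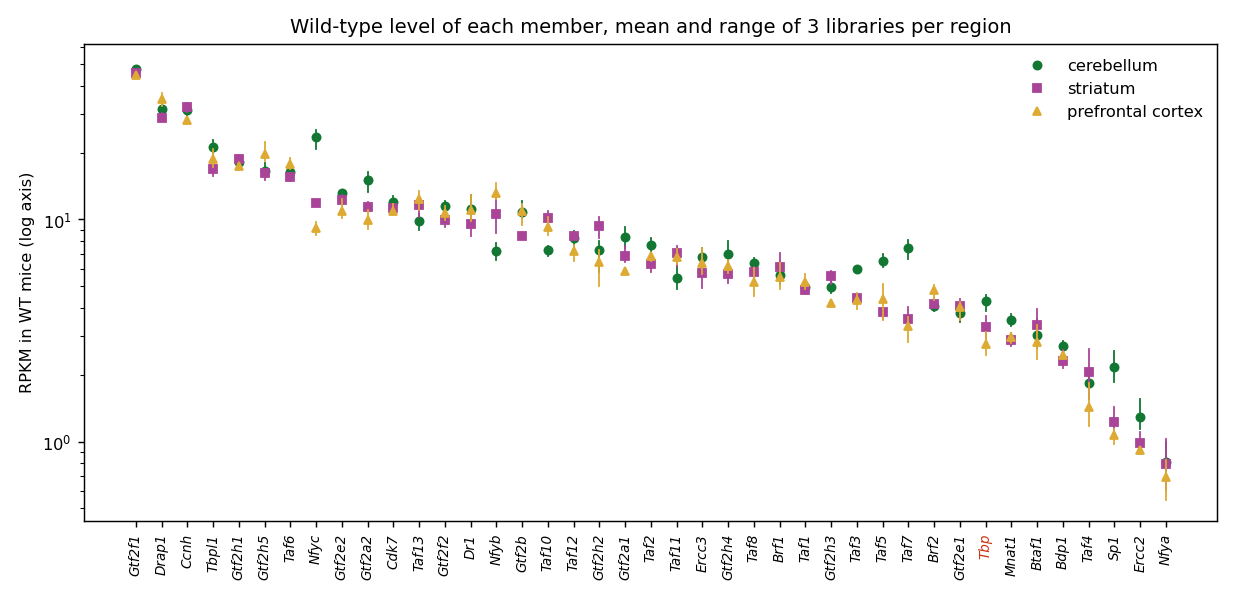
Mean WT level of each tested member in each brain region, in RPKM on a log axis, ordered by mean level, with vertical lines for the range of the 3 libraries; 41 members are drawn and *Taf9* is left out. *Gtf2f1* (45.9 RPKM over all WT libraries) is at the top of the range with all exon bases as length, and *Tbp* (3.44 RPKM) lies in its lower part in all 3 regions.

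*Taf9* was not tested. Its counts were 0 to 5 per library and 36 in all, and 73.8% of its 2120 exon bases lie on the same strand within exons of *Ak6*, which had 5599 counts, and reads that fall on both genes are dropped by the default mode of HTSeq, the counter named in the submitters' processing notes. The part of this overlap in the low count was not tested. *Tbp* also overlaps a neighbour. *Pdcd2* is on the opposite strand, all of its 2582 exon bases lie within *Tbp* exons, where they make up 19.0% of them, and its count was 0 in every library. Without the use of strand, reads from that stretch fall on both genes, which the default mode of HTSeq counts for neither, and the use of strand is not given in the sources used here. The stretch is part of the exon length behind the RPKM of *Tbp*. The part of this overlap in the counts of *Tbp* was not tested. Other members with over 10% of exon bases shared with an opposite-strand gene were *Taf10* with *Ilk* (45.9%), *Taf6* with *Ap4m1* (26.5%), *Ercc2* with *Gm26852* (24.6%) and *Klc3* (17.8%), and *Tbpl1* with *Slc2a12* (12.4%).

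*Tbp* (ENSMUSG00000014767, chr17:15499888-15528379) was somewhat lower in KI than in WT mice in all 3 regions, with differences of -9.55%, -8.13% and -9.85%, and passed the test in none. In the cerebellum, the WT libraries were at 60.9, 52.5 and 62.0 CPM and the KI libraries at 52.2, 54.3, 48.5 and 56.6 CPM. The means were 58.5 ± 5.23 CPM (SD, n = 3) and 52.9 ± 3.46 CPM (SD, n = 4). The groups overlapped, with the second WT library below 2 of the KI libraries. In the striatum, WT libraries were at 39.5, 49.6 and 44.0 CPM and KI libraries at 38.1, 42.0 and 42.3 CPM. In the prefrontal cortex, WT libraries were at 36.6, 33.4 and 42.1 CPM and KI libraries at 33.2, 35.9 and 32.0 CPM. In both, the highest library was a WT library and the lowest a KI library, and the groups overlapped.

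The log2 fold change of *Tbp*, KI against WT, was -0.14 for cerebellum (SE 0.0975, adjusted p = 0.687), -0.12 for striatum (SE 0.105, adjusted p = 0.844) and -0.15 for prefrontal cortex (SE 0.106, adjusted p = 0.921). As a percentage, the 95% confidence interval reached from -21.6% to 4.33% in the cerebellum, from -21.3% to 7.19% in the striatum and from -22.8% to 5.32% in the prefrontal cortex. Averaged over the regions, *Tbp* was at -0.14 (SE 0.0595), a difference of -9.18% with an interval from -16.8% to -0.909%. The unadjusted p of that average was 0.0323, and the p adjusted over all tested genes was 0.347. With same-numbered striatum and prefrontal cortex libraries as a block, in voom, the unadjusted p was 0.0574, and in voom without a block it was 0.0410. Between 331 and 980 reads per library stood behind these values. The effect on *Tbp* did not differ detectably between regions: the differences of the log2 fold changes were -0.02 (SE 0.144) between cerebellum and striatum, 0.00 (SE 0.144) between cerebellum and prefrontal cortex and 0.03 (SE 0.15) between striatum and prefrontal cortex.

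**Figure D2:**
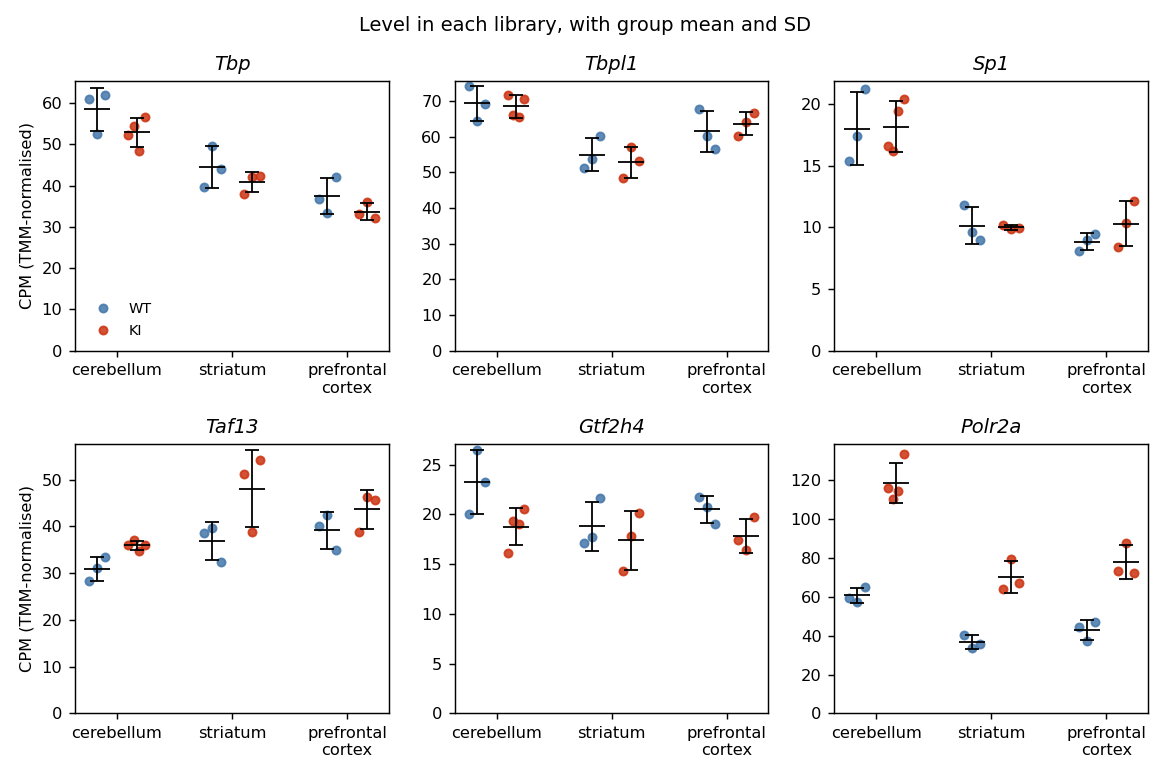
CPM of *Tbp*, *Tbpl1*, *Sp1*, *Taf13*, *Gtf2h4* and, for comparison, *Polr2a* in each of the 19 libraries by brain region and genotype; points are libraries, horizontal lines group means and bars the SD. The WT and KI points of *Tbp* overlap in each region, while for *Polr2a* every KI library lies above every WT library of its region.

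*Psmb1*, a proteasome subunit gene, is the chromosomal neighbour of *Tbp*. Its log2 fold change was 0.13 for cerebellum, 0.03 for striatum and 0.14 for prefrontal cortex. Averaged over regions it was 0.10 (SE 0.0427, unadjusted p = 0.0308, adjusted p = 0.340), opposite in sign to that of *Tbp* and likewise not past the threshold.

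*Tbpl1* encodes a TBP-related factor that serves other core promoters and lacks the glutamine repeat region of TBP. In the cerebellum it was at 74.4, 64.4 and 69.3 CPM in WT and at 71.8, 66.1, 65.7 and 70.6 CPM in KI libraries. In the striatum the values were 51.2, 53.7 and 60.3 CPM in WT and 48.4, 57.1 and 53.3 CPM in KI, and in the prefrontal cortex 67.8, 60.3 and 56.5 CPM in WT and 60.2, 64.3 and 66.6 CPM in KI. The groups overlapped in all 3 regions. The log2 fold changes were -0.02, -0.06 and 0.05, and the average was -0.01 (SE 0.0502, adjusted p = 0.976), with an interval from -7.60% to 7.04%.

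*Sp1* (ENSMUSG00000001280, chr15:102406143-102436404), the GC-box factor that binds TBP, was likewise not called. Cerebellar libraries were at 15.4, 17.4 and 21.2 CPM in WT and at 16.6, 16.2, 19.4 and 20.4 CPM in KI. Striatal libraries were at 11.8, 9.59 and 8.96 CPM in WT and at 10.2, 9.82 and 9.91 CPM in KI. The groups overlapped in both. In the prefrontal cortex, *Sp1* was at 8.08, 8.96 and 9.44 CPM in WT and at 8.42, 10.3 and 12.1 CPM in KI, with 2 of the 3 KI libraries above all WT libraries. The log2 fold changes were 0.01 (SE 0.145), -0.02 (SE 0.160) and 0.22 (SE 0.161), and the average was 0.07 (SE 0.0897, adjusted p = 0.825), with an interval from -7.98% to 19.6%.

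Across the whole machinery, 0 of the 41 tested members were called at an adjusted p under 0.05 in any region. Among all 16841 tested genes, 0.831% were called for cerebellum, 0.582% for striatum and 0.107% for prefrontal cortex, which over 41 genes is under 1 gene in each region. In the contrast averaged over regions, 1.35% of all genes and 0 of 41 members were called. The smallest adjusted p among the members was 0.435 for cerebellum, 0.284 for striatum, 0.637 for prefrontal cortex and 0.0994 for the average. At an unadjusted p under 0.05, 2 members passed in the cerebellum (4.88%, against 10.1% of all genes), 2 in the striatum (4.88%, against 8.12%), 1 in the prefrontal cortex (2.44%, against 5.93%) and 8 for the average (19.5%, against 12.3%). The average takes all libraries as independent. Its 8 members were not recounted with same-numbered striatum and prefrontal cortex libraries as a block. DESeq2 called 0 members in each region and 1, *Taf13*, for the average.

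The median log2 fold change of the 41 members was -0.01 for cerebellum, -0.03 for striatum and 0.06 for prefrontal cortex, beside 0.01, -0.01 and 0.00 over all tested genes. In the cerebellum 20 members lay above 0 (48.8%, against 51.5% of all genes), with 17 for striatum (41.5%, against 48.5%) and 27 for prefrontal cortex (65.9%, against 50.4%), and 12 lay above 0 and 11 below 0 in all 3 regions. The 95% interval lay within 0.5 on the log2 scale of no change for 37 members in cerebellum, 36 in striatum and 35 in prefrontal cortex. For the average this held for all 41. The median half-width was 0.22 in cerebellum and 0.24 in striatum and prefrontal cortex. In each region this was more than the size of the effect on *Tbp*. In each region and for the average, all 41 intervals lay within 1 on the log2 scale.

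**Figure D3:**
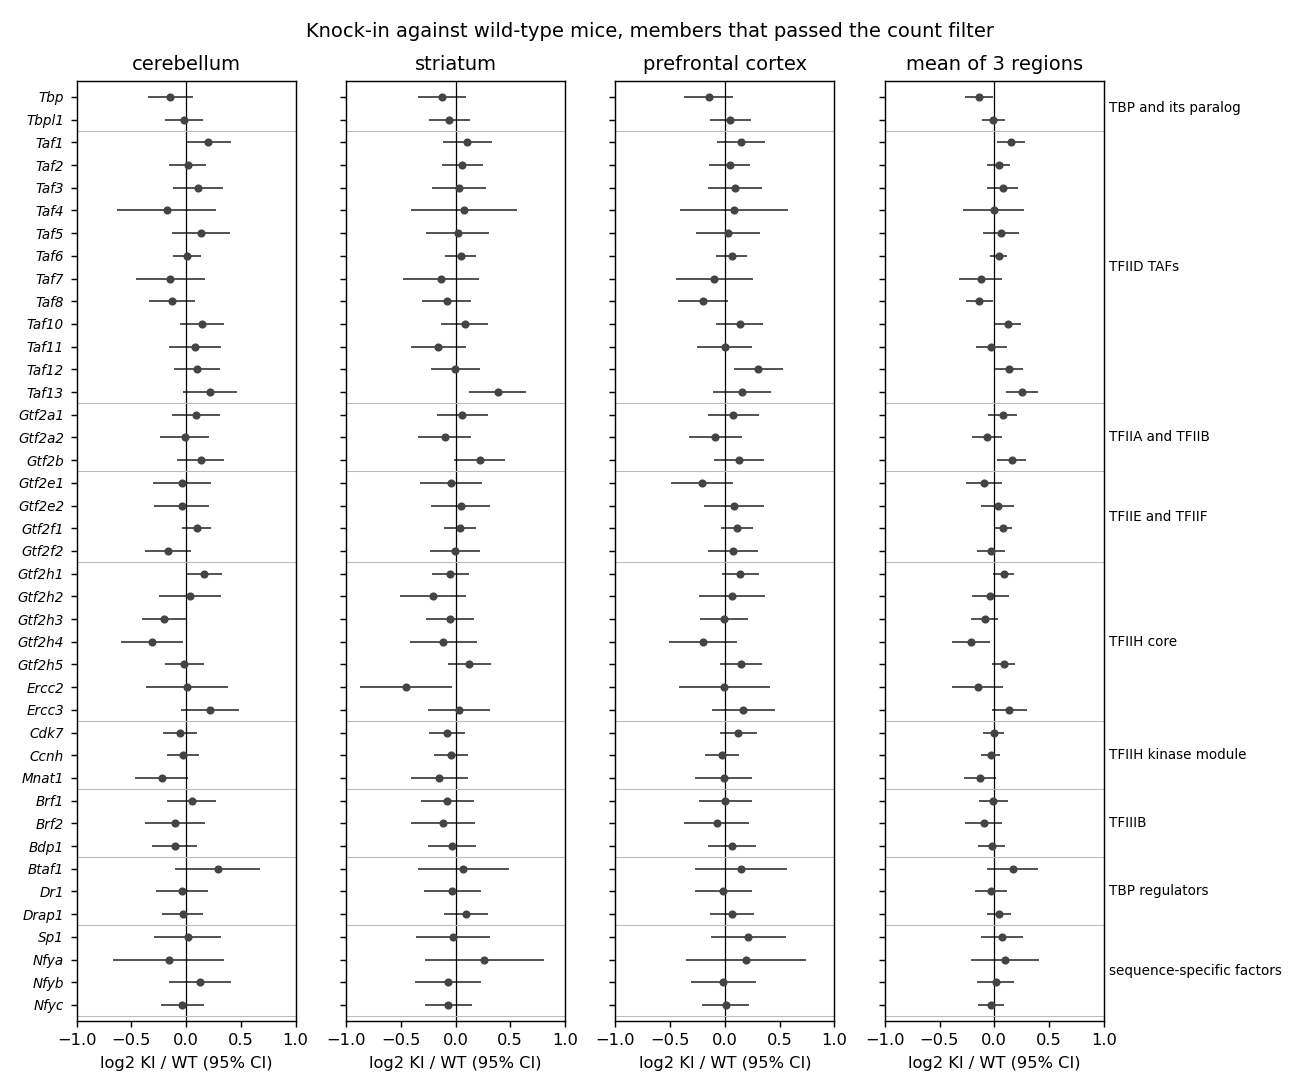
Log2 fold change, KI against WT, of each of the 41 tested members in the cerebellum, striatum and prefrontal cortex and averaged over regions; bars are 95% confidence intervals and the vertical line marks no change. The points scatter on both sides of 0, and all intervals lie within 1 on the log2 scale.

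Of the 12 tested TAFs, 9 lay above 0 in cerebellum, 8 in striatum and 9 in prefrontal cortex, and none passed the test. *Taf13*, which pairs with TAF11 through a histone fold, had the smallest p of the TAFs in the striatum and for the average over regions. Cerebellar *Taf13* was at 28.2, 31.0 and 33.5 CPM in WT and at 36.0, 37.1, 34.7 and 36.1 CPM in KI libraries, so that all KI libraries lay above all WT libraries. It was 1 of 4 members whose groups did not overlap in the cerebellum (9.76%, against 12.3% of all genes). In the striatum, WT libraries were at 38.5, 39.7 and 32.3 CPM and KI libraries at 51.2, 38.8 and 54.2 CPM, with KI replicate 2 inside the WT range. In the prefrontal cortex, WT libraries were at 40.1, 42.4 and 34.8 CPM and KI libraries at 38.8, 46.3 and 45.7 CPM, and the groups overlapped.

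The log2 fold change of *Taf13* was 0.22 for cerebellum (SE 0.116, adjusted p = 0.562), 0.38 for striatum (SE 0.123, adjusted p = 0.284) and 0.16 for prefrontal cortex (SE 0.124, adjusted p = 0.930). The average was 0.25 (SE 0.0699), which is 19.2% with an interval from 7.60% to 32.0% (unadjusted p = 0.00215, adjusted p = 0.0994). This was the largest average among the members. *Taf13* passed the threshold when DESeq2 was used (0.25, adjusted p = 0.0365). It also passed when KI striatum replicate 2, the library inside the WT range, was left out (0.30, adjusted p = 0.0219). In all other alternative fits and without any other single library it did not pass, with an adjusted p of up to 0.220. With same-numbered striatum and prefrontal cortex libraries as a block, in voom, the adjusted p was 0.172.

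*Taf1*, the largest TFIID subunit, was at 44.3, 42.7 and 40.1 CPM in WT and 55.7, 47.9, 43.5 and 47.9 CPM in KI cerebellum, where only KI replicate 3 reached into the WT range. Its average log2 fold change was 0.15 (SE 0.0589, unadjusted p = 0.0191, adjusted p = 0.281). In the prefrontal cortex *Taf1* was at 43.7, 41.5 and 48.7 CPM in WT and 49.7, 49.0 and 49.5 CPM in KI, without overlap. *Taf12*, the histone-fold partner of TAF4, was at 30.1, 30.9 and 26.2 CPM in WT and 31.6, 39.7 and 36.6 CPM in KI prefrontal cortex. These groups did not overlap either (log2 fold change 0.31, SE 0.106, adjusted p = 0.637), and *Taf1* and *Taf12* were the 2 such members in that region (4.88%, against 8.69% of all genes). *Taf8*, a partner of TAF10, pointed the other way, with an average of -0.14 (SE 0.0600, adjusted p = 0.365). It was at 27.7, 28.7 and 30.3 CPM in WT and 26.2, 26.9, 26.7 and 25.9 CPM in KI cerebellum, without overlap. *Taf11* was at 40.3, 34.0 and 41.9 CPM in WT and 35.3, 34.1 and 34.8 CPM in KI striatum (-0.16, SE 0.120, adjusted p = 0.813).

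Among TFIIA, TFIIB, TFIIE and TFIIF, *Gtf2b*, which encodes TFIIB, was at 38.7, 40.1 and 37.5 CPM in WT and 43.7, 44.3 and 47.3 CPM in KI striatum. It was 1 of 4 members without overlap in that region (9.76%, against 14.1% of all genes), together with *Gtf2a2*, *Gtf2h5* and *Ercc2*. Its log2 fold change there was 0.22 (SE 0.110, adjusted p = 0.636), and its average was 0.16 (SE 0.0619, unadjusted p = 0.0198, adjusted p = 0.283). *Gtf2e1*, the larger TFIIE subunit, was at 26.7, 22.3 and 26.8 CPM in WT and 25.3, 16.9 and 23.4 CPM in KI prefrontal cortex, and its groups overlapped (-0.21, SE 0.135, adjusted p = 0.916). *Gtf2f1* was at an average of 0.08 (SE 0.0384, unadjusted p = 0.0486, adjusted p = 0.403).

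In both the cerebellum and the striatum, the lowest log2 fold change belonged to a TFIIH gene. *Gtf2h4*, its p52 subunit, was at 20.1, 26.5 and 23.3 CPM in WT and 16.1, 19.3, 19.0 and 20.5 CPM in KI cerebellum. Only the highest KI library reached above the lowest WT library. The log2 fold change was -0.31 (SE 0.135, unadjusted p = 0.0331, adjusted p = 0.435) in the cerebellum and -0.21 (SE 0.0821, adjusted p = 0.290) on average. *Ercc2*, the XPD helicase of TFIIH, was at 4.61, 3.86 and 3.79 CPM in WT and 2.64, 3.08 and 3.24 CPM in KI striatum, without overlap (-0.45, SE 0.199, adjusted p = 0.550). Only 39 to 69 reads per library stood behind these striatal values. *Ercc2* did not differ in the same way elsewhere, with 0.01 (SE 0.179) in the cerebellum and -0.01 (SE 0.197) in the prefrontal cortex. The other way, *Gtf2h1*, the p62 subunit, was at 54.6, 55.8 and 51.4 CPM in WT and 58.7, 65.7, 58.3 and 59.4 CPM in KI cerebellum, without overlap (0.17, SE 0.0744, adjusted p = 0.465).

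The remaining TFIIH members with the smallest p in a region and direction were not called either. *Gtf2h3* was at -0.20 (SE 0.0963, adjusted p = 0.494) in the cerebellum, and *Gtf2h2* at -0.21 (SE 0.142, adjusted p = 0.778) in the striatum. *Gtf2h5* was at 64.6, 57.7 and 64.7 CPM in WT and 65.8, 66.8 and 71.7 CPM in KI striatum, a difference of 0.13 (SE 0.0910, adjusted p = 0.793). The 3 genes of the TFIIH kinase module, *Cdk7*, *Ccnh* and *Mnat1*, were all below 0 in the cerebellum and striatum, and none passed the test. *Mnat1*, its assembly factor, was at -0.22 (SE 0.114, adjusted p = 0.532) in the cerebellum.

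The 3 TFIIIB genes *Brf1*, *Brf2* and *Bdp1*, which join TBP at RNA polymerase III promoters, had average log2 fold changes of -0.01 (SE 0.0644), -0.10 (SE 0.0788) and -0.02 (SE 0.0586). Of the regulators of TBP, *Btaf1*, the ATPase that removes TBP from DNA, was at 0.17 (SE 0.111, unadjusted p = 0.149, adjusted p = 0.578), and the NC2 subunits *Dr1* and *Drap1* were at -0.03 (SE 0.0690) and 0.04 (SE 0.0532). The NF-Y subunits *Nfya*, *Nfyb* and *Nfyc* were at 0.10 (SE 0.146), 0.01 (SE 0.0803) and -0.03 (SE 0.0572). None of these was called in any region.

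No member was called when the effects of 2 regions were compared with each other (0 of 41 in each of the 3 pairs of regions). Among all genes, 0.0119% were called for cerebellum against striatum, 0.0178% for cerebellum against prefrontal cortex and 0 for striatum against prefrontal cortex. At an unadjusted p under 0.05, 0 members passed in any of the 3 pairs, against 6.69%, 6.12% and 4.41% of all genes. The 95% half-widths of these differences had a median of 0.33, 0.33 and 0.34 on the log2 scale, which is wider than for the effects within regions.

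Genes that work beside these members gave 3 called genes from 7 lists: RNA polymerase II, Mediator, SAGA, SNAPc, TFIIIA and TFIIIC, the SP1 relatives, and other homologs of TBP and the TAFs. Of all 16841 tested genes, 0.831% were called for cerebellum, 0.582% for striatum, 0.107% for prefrontal cortex and 1.35% for the average. *Polr2a*, which codes for the catalytic large subunit RPB1, rose in each region and was the 1 called among 13 subunits. It was at 59.6, 57.7 and 65.1 CPM in WT and 116, 110, 115 and 134 CPM in KI cerebellum. In the striatum it was at 40.5, 33.5 and 35.9 CPM in WT and 64.1, 79.6 and 67.4 CPM in KI, and in the prefrontal cortex at 44.3, 37.2 and 47.1 CPM in WT and 73.3, 88.0 and 72.6 CPM in KI. No KI library overlapped the WT libraries of its region. The average log2 fold change was 0.92 (SE 0.0641, adjusted p = 2.33e-07), an increase of 89.7%. In the prefrontal cortex the call (adjusted p = 0.00305) was lost when that region was fitted alone (adjusted p = 0.216) or when replicate numbers were a block within regions (adjusted p = 0.0852).

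*Taf9b*, the paralog of *Taf9* that is found in TFIID and SAGA, was not called in any single region but rose on average. In the cerebellum it was at 52.2, 44.9 and 52.5 CPM in WT and 59.7, 57.4, 57.7 and 58.3 CPM in KI. In the striatum it was at 70.1, 70.7 and 73.8 CPM in WT and 78.7, 76.7 and 80.2 CPM in KI, and in the prefrontal cortex at 54.7, 55.0 and 51.3 CPM in WT and 64.4, 67.8 and 67.8 CPM in KI. All KI libraries lay above all WT libraries in each of the 3 regions, which held, counting either direction, for 0.546% of all tested genes and for 0 of the 41 members. The log2 fold changes were 0.23 (SE 0.0616), 0.13 (SE 0.0654) and 0.31 (SE 0.0659), and the average was 0.22 (SE 0.0371, adjusted p = 0.00296), an increase of 16.8% with an interval from 10.6% to 23.3%. It was the 1 called among 9 tested homologs of 12 listed.

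*Med23*, a Mediator subunit that receives signals from activators, fell on average, by 0.26 on the log2 scale (SE 0.0626, adjusted p = 0.0449), and was the 1 called among 30 tested Mediator genes. In the striatum it was at 40.4, 46.0 and 43.6 CPM in WT and 35.1, 36.2 and 32.7 CPM in KI, without overlap. In the prefrontal cortex it was at 35.9, 38.3 and 46.8 CPM in WT and 31.0, 33.8 and 32.7 CPM in KI, again without overlap, whereas in the cerebellum the groups overlapped. The call was lost when same-numbered striatum and prefrontal cortex libraries were treated as a block (adjusted p = 0.0764), in 3 of the 8 other alternative fits and in 17 of the 19 fits with 1 library left out, where the largest adjusted p was 0.108. *Taf9b*, in contrast, was called in all of these fits, with an adjusted p of at most 0.0306. Of the other lists, 0 of 14 SAGA genes, 0 of 5 SNAPc genes, 0 of 6 TFIIIA and TFIIIC genes and 0 of 3 SP1 relatives were called in any knock-in contrast.

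In WT mice the members differed between brain regions, and more of them were called than between genotypes. Between cerebellum and striatum, 16 of the 41 members were called (39.0%, against 56.5% of all genes), 12 higher and 4 lower in the cerebellum (all genes 27.8% and 28.7%). Between cerebellum and prefrontal cortex, 15 were called (36.6%, against 52% of all genes), 10 higher and 5 lower in the cerebellum (25.1% and 26.9%). Between striatum and prefrontal cortex, 7 were called (17.1%, against 30.5%), 3 higher and 4 lower in the striatum (14% and 16.4%). With same-numbered striatum and prefrontal cortex libraries as a block, 9 were called there, with *Ccnh* and *Nfyb* added to the 7. The first 2 comparisons share the cerebellar libraries. In both, *Gtf2a1*, *Gtf2a2*, *Nfyc*, *Sp1*, *Taf3*, *Taf5*, *Taf7* and *Tbp* were higher and *Nfyb*, *Taf10* and *Taf11* lower in the cerebellum. Of these, *Gtf2a1* lost its call from striatum in 6 of 8 alternative fits, DESeq2 and the block among them, and *Taf11* its call from prefrontal cortex when genes with low counts were kept. The median log2 difference of the members was 0.10, 0.14 and 0.04 in the 3 comparisons.

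*Tbp* was highest in the cerebellum, at 4.31 ± 0.385 RPKM (SD, n = 3), against 3.27 ± 0.373 RPKM in the striatum and 2.76 ± 0.323 RPKM in the prefrontal cortex of WT mice. Its log2 difference was 0.40 (SE 0.105, adjusted p = 0.00402) from striatum and 0.64 (SE 0.105, adjusted p = 6.99e-05) from prefrontal cortex. All 3 WT cerebellar libraries lay above those of both other regions. Between striatum and prefrontal cortex, next to each other in this order, *Tbp* was not called after adjustment over all genes (0.25, SE 0.106, adjusted p = 0.0882).

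*Nfyc* and *Taf7* showed the largest differences between regions among the members called. *Nfyc*, a histone-fold subunit of NF-Y, was at 61.0, 74.7 and 72.6 CPM in WT cerebellum, at 34.5, 35.1 and 35.1 CPM in striatum and at 26.9, 25.0 and 28.8 CPM in prefrontal cortex. It differed by 0.99 (adjusted p = 2.98e-07) and 1.37 (adjusted p = 8.56e-09) between cerebellum and the other regions, and by 0.37 (adjusted p = 0.0101) between striatum and prefrontal cortex. Its partner *Nfyb* had the reverse order, with 33.3, 39.5 and 36.5 CPM in cerebellum, 52.6, 43.9 and 64.0 CPM in striatum and 74.0, 62.8 and 63.8 CPM in prefrontal cortex. The differences of *Nfyb* were -0.55 (adjusted p = 0.00342) and -0.88 (adjusted p = 6.92e-05), with no overlap between cerebellum and either region. *Taf7*, which restrains TAF1 before initiation, was at 21.9, 26.6 and 25.5 CPM in cerebellum, 10.5, 13.4 and 11.4 CPM in striatum and 9.31, 12.0 and 11.7 CPM in prefrontal cortex. It differed by 1.07 (adjusted p = 3.02e-05) and 1.16 (adjusted p = 1.47e-05).

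*Sp1* was at 2.18 ± 0.359 RPKM (SD, n = 3) in WT cerebellum, 1.23 ± 0.182 RPKM in striatum and 1.07 ± 0.0831 RPKM in prefrontal cortex. The cerebellum differed by 0.82 (adjusted p = 0.000295) and 1.02 (adjusted p = 4.2e-05), and striatum and prefrontal cortex did not differ beyond their spread (0.20, adjusted p = 0.387). *Taf5*, a scaffold subunit of TFIID, was higher in the cerebellum by 0.75 (adjusted p = 0.000178) and 0.57 (adjusted p = 0.00215). *Taf10* and *Taf11*, both histone-fold TAFs, were lower there. *Taf10* was at -0.49 (adjusted p = 0.000588) and -0.35 (adjusted p = 0.00817), and *Taf11* at -0.37 (adjusted p = 0.0158) and -0.30 (adjusted p = 0.0436). The call of *Taf11* from striatum was lost without WT cerebellum replicate 1 (adjusted p = 0.0773) or WT striatum replicate 3 (adjusted p = 0.0546), and that of *Taf10* from prefrontal cortex without WT prefrontal cortex replicate 1 (adjusted p = 0.0505). The call of *Taf11* from prefrontal cortex was lost in 4 of 6 fits with a library left out.

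**Figure D4:**
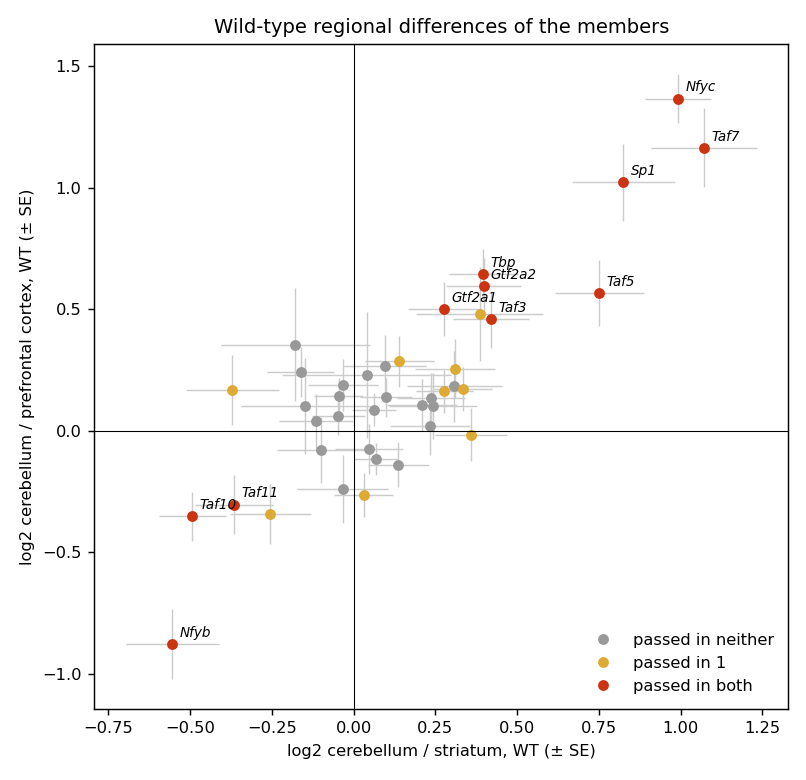
Log2 difference of WT cerebellum from WT prefrontal cortex against that from WT striatum for the 41 tested members, with SE bars; both axes share the cerebellar libraries. *Nfyc*, *Taf7* and *Sp1* lie at the upper right and *Nfyb* at the lower left.

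Between WT striatum and prefrontal cortex, *Gtf2h3* (0.40, adjusted p = 0.00678), *Gtf2h2* (0.54, adjusted p = 0.00836) and *Nfyc* were higher in the striatum. *Gtf2b* (-0.37, adjusted p = 0.0160), *Gtf2h5* (-0.29, adjusted p = 0.0217), *Drap1* (-0.28, adjusted p = 0.0351) and *Taf6* (-0.18, adjusted p = 0.0468) were lower. *Taf6* was not called in 6 of 8 alternative fits. Each of the 4 lower members lost its call in at least 1 fit with a library left out, and only *Nfyc*, *Gtf2h3* and *Gtf2h2* were still called without WT prefrontal cortex replicate 1. The genes of TFIIE, TFIIF and TFIIIB were not called between cerebellum and either other region. *Tbpl1* was higher in cerebellum than in striatum (0.33, adjusted p = 0.00422), and its levels of 21.2, 16.8 and 18.8 RPKM in cerebellum, striatum and prefrontal cortex spanned a narrower range than those of *Nfyc*.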

How the data were processed

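RNA was extracted with Trizol from 19 tissue samples in 6 groups of region and genotype, libraries were made with SMART-Seq v4 and Nextera XT, and messenger RNA was sequenced on a HiSeq1000. The authors deposited a table of raw counts per Ensembl gene for each library, without normalization, and a signal table in which each library's counts are divided by its DESeq2 size factor. The submitters' processing notes name bcl2fastq 2.17.1.14, STAR 2.5.2b, HTSeq, DESeq2 1.10.1 and GRCm38.p3, whereas the study's methods name Cufflinks and Cuffdiff. The use of strand is not given in the sources used here. Groups and replicate numbers came from the sample labels. No columns of comparisons by the authors were used.

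Genes were named through GENCODE M21 (40254 of 41128 identifiers matched). Counts were tested in R 4.3.3 with the quasi-likelihood test of edgeR 4.0.16, with filterByExpr by group, TMM scaling and 1 model for the 6 groups (13 residual degrees of freedom; common biological coefficient of variation 0.191). P values were two-sided and corrected after Benjamini and Hochberg across the 16841 genes tested, and genes were called at an adjusted p under 0.05. Contrasts were KI against WT in each region and averaged over regions with equal weights, the differences of these effects between regions, and WT between regions. Confidence intervals are at 95%. CPM used TMM library sizes, and RPKM divided CPM by the union of exon bases. With 10639110 to 17431284 counts per library, the confidence intervals give the precision reached. The p values measure the spread between these libraries, which the methods describe as 3 to 4 mice per genotype. No pair of libraries of a group was alike within sampling noise. Repeat and promoter sequences came from GENCODE M21 and RefSeq (GRCm38.p6).

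Same-numbered striatum and prefrontal cortex libraries of a genotype matched in sex in 6 of 6 cases, and their deviations from the group means correlated in every pair (0.233 to 0.368), so these were paired in an alternative fit. Cerebellar libraries did not follow these numbers. KI and WT libraries of the same number within a region correlated between -0.245 and 0.172 and were not treated as pairs.

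Alternatives were DESeq2 1.42.0, its size factors in edgeR, other filters on low counts, each region fitted alone, replicate blocks in edgeR or in voom of limma 3.58.1, a sex covariate, the deposited normalized table for the levels of *Tbp*, and each library left out. The block over striatum and prefrontal cortex alone and the voom fit without a block were chosen after seeing the data. The members, the other gene lists and the rule for named genes were chosen with earlier results of these data known. Named were *Tbp*, *Tbpl1* and *Sp1*, the 3 members with the smallest p in each direction of each main comparison, the 3 highest and 3 lowest in WT RPKM, and called genes of the other lists. Further members (*Gtf2a2*, *Gtf2f1*, *Taf6*, *Taf3*, *Gtf2a1* and those of TFIIIB, NC2 and NF-Y) were named after their values were seen.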

Additional observations from a re-analysis of the deposited data

Results flagged for a closer look

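With 4 libraries, KI cerebellum was the 1 group large enough for Dixon's test of a library far from the others, and 3 of the 43 genes examined were picked out. *Taf4*, a TFIID scaffold subunit, was at 9.97 CPM in KI cerebellum replicate 4, while the other KI libraries were at 6.64, 6.54 and 6.72 CPM. *Psmb1* was at 156 CPM in the same library, and at 184, 182 and 182 CPM in the others. *Gtf2h1* was at 65.7 CPM in KI cerebellum replicate 2, and at 58.7, 58.3 and 59.4 CPM in the others. Chance alone picks out about 1 in 20 groups by this test. The cause of these values was not tested.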

How the results depend on the processing

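The calls for the members were recomputed under 10 other settings within regions, 9 for the average and for the differences between regions, and 8 between regions in WT mice, and with each library of the groups compared left out in turn. Within the 3 regions and for the differences between them, 0 members were called in each of these fits. For the average over regions the count went from 0 to 1 (*Taf13*) with DESeq2, where 440 genes in all were called in place of 228, and ranged from 0 to 1 with libraries left out, being 1 without KI striatum replicate 2. Between WT cerebellum and striatum, 12 to 16 members were called with a library left out and 13 to 16 under the other settings, and between cerebellum and prefrontal cortex 11 to 13 and 10 to 15. Between WT striatum and prefrontal cortex the count ranged from 3 to 9, with 3 without WT prefrontal cortex replicate 1 and 4 without WT prefrontal cortex replicate 2 or WT striatum replicate 2. Of 6 fits with 1 library left out, the call was lost in 5 for *Drap1* and 4 for *Gtf2b* between these 2 regions, in 2 for *Gtf2h5*, and in 3 for *Gtf2h5* between cerebellum and prefrontal cortex. *Tbp* differed between WT striatum and prefrontal cortex without WT prefrontal cortex replicate 3 (0.34, adjusted p = 0.0312) or WT striatum replicate 1 (0.34, adjusted p = 0.0416).

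The knock-in effect on *Tbp* kept its sign and its side of the threshold under all alternatives. With libraries left out it ranged from -0.22 to -0.10 in the cerebellum, from -0.20 to -0.03 in the striatum, from -0.22 to -0.05 in the prefrontal cortex and from -0.17 to -0.11 for the average, whose adjusted p lay between 0.270 and 0.576 over all alternatives. Effects near 0 changed sign. With a library left out, *Tbpl1* ranged from -0.0665 to 0.0376 in the cerebellum, from -0.114 to 0.0176 in the striatum, from -0.00684 to 0.126 in the prefrontal cortex and from -0.0261 to 0.0181 on average. *Sp1* ranged from -0.0856 to 0.15 in the cerebellum and from -0.0986 to 0.108 in the striatum, and *Psmb1* from -0.0195 to 0.0889 in the striatum. The differences of the effect on *Tbp* ranged from -0.11 to 0.0536 (cerebellum and striatum), from -0.0881 to 0.0800 (cerebellum and prefrontal cortex) and from -0.0683 to 0.121 (striatum and prefrontal cortex). With the replicate block within regions, *Sp1* in the cerebellum was at -0.0394, and the difference of *Tbp* between cerebellum and prefrontal cortex at -0.0323. That difference was at -0.00133 with the replicate block across all regions and at -0.000356 with the block across striatum and prefrontal cortex. The block across striatum and prefrontal cortex changed no member's call in a knock-in contrast. In WT mice it added *Ccnh* and *Nfyb* between striatum and prefrontal cortex, and *Gtf2a1* (cerebellum and striatum) and *Ercc2* (cerebellum and prefrontal cortex) were not called with it, as also in voom without a block. The cause of these changes was not tested.

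With 3 or 4 libraries per group, the 95% half-width of a member's effect had a median of 0.22 to 0.24 on the log2 scale within a region and 0.14 for the average.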
